A study of Mus musculus with 7 samples.

Results

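The genes described here encode the nuclear subunits of respiratory complexes II to V. They are all gene names in the deposited tables that are Sdha, Sdhb, Sdhc or Sdhd or start with Uqcr, Cox4i, Cox5, Cox6, Cox7, Cox8 or Atp5, without the 10 names marked as pseudogenes by -ps. This gave 48 of the 53083 genes shared by all tables: 4 of complex II, 8 of complex III, 19 of complex IV and 17 of complex V. The rule uses gene names only, but it was set with earlier results of these data known. Cox7a2l has a subunit-like name and is known for its part in joining complexes, and it was kept because its name met the rule.

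The series measured polyA RNA in single cryosections of mouse tibialis anterior, a mostly fast shin muscle, 1 table per muscle and 1 column per section. The labels give 2 WT, 2 Ctr and 3 DMD muscles and no strain, age, sex or allele. The column names carry pax7 for WT, hDMD for Ctr and mdx for DMD, which the labels do not explain. Of 525 sections, 422 passed a filter on total counts (114 WT, 116 Ctr and 192 DMD), and they were added up per muscle. The WT tables were counted with another gene annotation than the Ctr and DMD tables, so in any comparison with WT the group and the annotation cannot be told apart.

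The 4 complexes are the later stages of oxidative phosphorylation in the inner mitochondrial membrane. Complex II (succinate dehydrogenase) passes electrons from the citric acid cycle to ubiquinone, complex III passes them on to cytochrome c, complex IV (cytochrome c oxidase) hands them to oxygen, and complex V (ATP synthase) uses the proton gradient to make ATP. Several complex IV subunits come as pairs of isoforms, one made in heart and skeletal muscle and one made in most other tissues, and oxidative fibres hold more of all these complexes than glycolytic ones.

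Promoter sequence is shown first for the isoform genes that the results turn on, and for Sdhd and Uqcrc1, because the question for each pair is how 2 genes for the same position in the complex differ. The table of RefSeq promoter windows (GRCm38.p6, 250 bases before to 50 bases after the start of transcription) held 36 of the 48 genes. The 12 others, among them Cox6a2, Cox4i1 and Cox4i2, are named only. The 150 bases before the start are printed 5′ to 3′ on the strand of the gene, in lower case, with complete matches to the motifs described next in capitals. They lie at chr5:115348959-115349108 (minus strand, Cox6a1), chr7:30184021-30184170 (plus, Cox7a1), chr9:79759854-79760003 (minus, Cox7a2), chr19:7217617-7217766 (minus, Cox8a), chr7:140900447-140900596 (minus, Cox8b), chr9:50603850-50603999 (minus, Sdhd) and chr9:108936498-108936647 (plus, Uqcrc1).
Cox6a1: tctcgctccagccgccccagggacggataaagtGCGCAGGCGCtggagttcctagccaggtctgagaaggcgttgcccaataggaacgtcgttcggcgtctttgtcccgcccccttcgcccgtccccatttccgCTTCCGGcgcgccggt
Cox7a1: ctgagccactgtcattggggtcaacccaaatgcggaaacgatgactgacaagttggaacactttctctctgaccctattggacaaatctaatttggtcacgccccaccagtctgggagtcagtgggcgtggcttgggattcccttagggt
Cox7a2: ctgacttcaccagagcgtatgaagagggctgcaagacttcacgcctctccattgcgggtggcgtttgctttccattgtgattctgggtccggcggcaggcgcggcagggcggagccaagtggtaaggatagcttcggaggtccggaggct
Cox8a: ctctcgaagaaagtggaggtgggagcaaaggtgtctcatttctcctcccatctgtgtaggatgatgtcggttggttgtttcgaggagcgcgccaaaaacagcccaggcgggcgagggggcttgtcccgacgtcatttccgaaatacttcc
Cox8b: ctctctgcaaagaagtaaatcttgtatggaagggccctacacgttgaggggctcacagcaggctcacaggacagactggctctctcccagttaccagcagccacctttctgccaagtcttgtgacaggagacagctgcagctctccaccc
Sdhd: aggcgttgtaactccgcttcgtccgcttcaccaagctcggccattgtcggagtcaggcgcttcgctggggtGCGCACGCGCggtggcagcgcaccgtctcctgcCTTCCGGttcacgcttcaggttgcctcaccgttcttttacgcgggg
Uqcrc1: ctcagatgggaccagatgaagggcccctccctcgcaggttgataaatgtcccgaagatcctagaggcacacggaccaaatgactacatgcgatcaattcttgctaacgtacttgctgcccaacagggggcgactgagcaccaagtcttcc

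Motifs of 4 factors known to act on respiratory genes were searched in the whole window on both strands. The NRF1 motif (GCGCA, any base, GCGC) was found in the windows of 10 of 36 subunit genes (27.8%) and of 5.19% of all 27025 genes in the table. The ETS motif CCGGAAG, bound by GABP among other factors, was found in 13 of 36 (36.1%) against 9.93% of all genes. The ERR motif TNAAGGTCA was found in 2 subunit genes, Atp5g3 and Sdhd (all genes 1.43%), and the YY1 motif (AA, any base, ATGGCG, any base, C) in 1, Atp5j2 (all genes 1.77%). No window of a subunit gene held overlapping matches of 2 motifs. In the printed stretches, Cox6a1 and Sdhd each hold 1 NRF1 and 1 ETS match, in capitals above. The muscle isoform genes Cox7a1 and Cox8b had no match in the whole window, nor had Cox7a2, while the matches of Cox8a (ETS) and Uqcrc1 (NRF1) lie outside the printed stretch.

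The depth and identity of the muscles bear on all results. Kept sections summed to between 11181994 and 41407203 counts per muscle. Muscle fibre markers took 7.26 to 13.6% of counts in every muscle, and markers of heart (Myh6, Nppa and Tnni3) at most 5.7e-05%. All 10 macrophage markers and 5 of 7 fibroblast and matrix markers were higher in DMD than in Ctr, and 3 of 5 oxidative fibre markers (Myh2, Myl3 and Mb) and 2 of 5 erythroid markers were lower. Of the regenerating fibre markers 4 of 5 were higher, and none of the 8 muscle fibre, 4 endothelial and 4 adipocyte markers tested passed (2, 2 and 1 at an unadjusted p below 0.05). In bulk sections, fewer cells of a type and less RNA per cell cannot be told apart.

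Levels are given in CPM, counts scaled to a common library total, with TMM factors, in the order of the replicates. TMM (trimmed mean of M values) lines up the bulk of genes between muscles. Overlap of gene levels between groups refers to these TMM-scaled values, and for some genes it differs with library size as the only scaling. Cox6a2 alone held 34.0% of the 3376002 counts on the 48 genes. Per kilobase of exon it was also the highest, with a mean level of 12731 CPM per kilobase, followed by Cox6b1 at 1530 and Cox8b at 1083. At the other end, Cox8c had 0 counts in 145116002, which allows a level of up to 0.0207 CPM, and Cox7b2 had 1 count. Cox6b2 had 85 counts in all, 0.255 to 0.901 CPM in each muscle. Cox7b2 and Cox8c did not pass the filter on low counts, which left 46 of the 48 genes tested between groups.

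Of the 46 genes, 4 were lower in DMD than in Ctr and none was higher, at an adjusted p below 0.05 (edgeR quasi-likelihood test, Benjamini-Hochberg over all genes). They were the complex II anchor subunit Sdhd, the complex III core subunit Uqcrc1, and Cox4i1 and Cox4i2, the alternative forms of complex IV subunit 4. This was 8.70% of the genes, while 5.49% of all 13746 genes tested were lower, 7.17% were higher and 12.7% changed in either direction, so the share was not far from the background. The median difference was -0.21 on the log2 scale over the 46 genes and 0.02 over all genes. With library size as the only scaling the median of all genes moved to 0.33 and that of the subunits to 0.08, and no subunit passed, so the direction of the family as a whole depends on the scaling. Measured from the median of all genes, the subunits lay at -0.24 with TMM and -0.25 with library size, and 35 of 46 were below that median under both.

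By complex, the median TMM-scaled log2 difference of DMD minus Ctr was -0.49 for complex II, -0.19 for complex III, -0.03 for complex IV and -0.30 for complex V. Complex V had no gene past the threshold, although 15 of its 17 were below 0 with TMM scaling. The levels of 19 genes lay lower in all 3 DMD muscles than in both Ctr muscles, and those of 4 lay higher (Uqcrb, Cox8a, Cox6a1 and Cox6b2). That is 41.3% of 46 lower against 22.2% of all genes, and 8.70% higher against 23.8%.

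**Figure D1:**
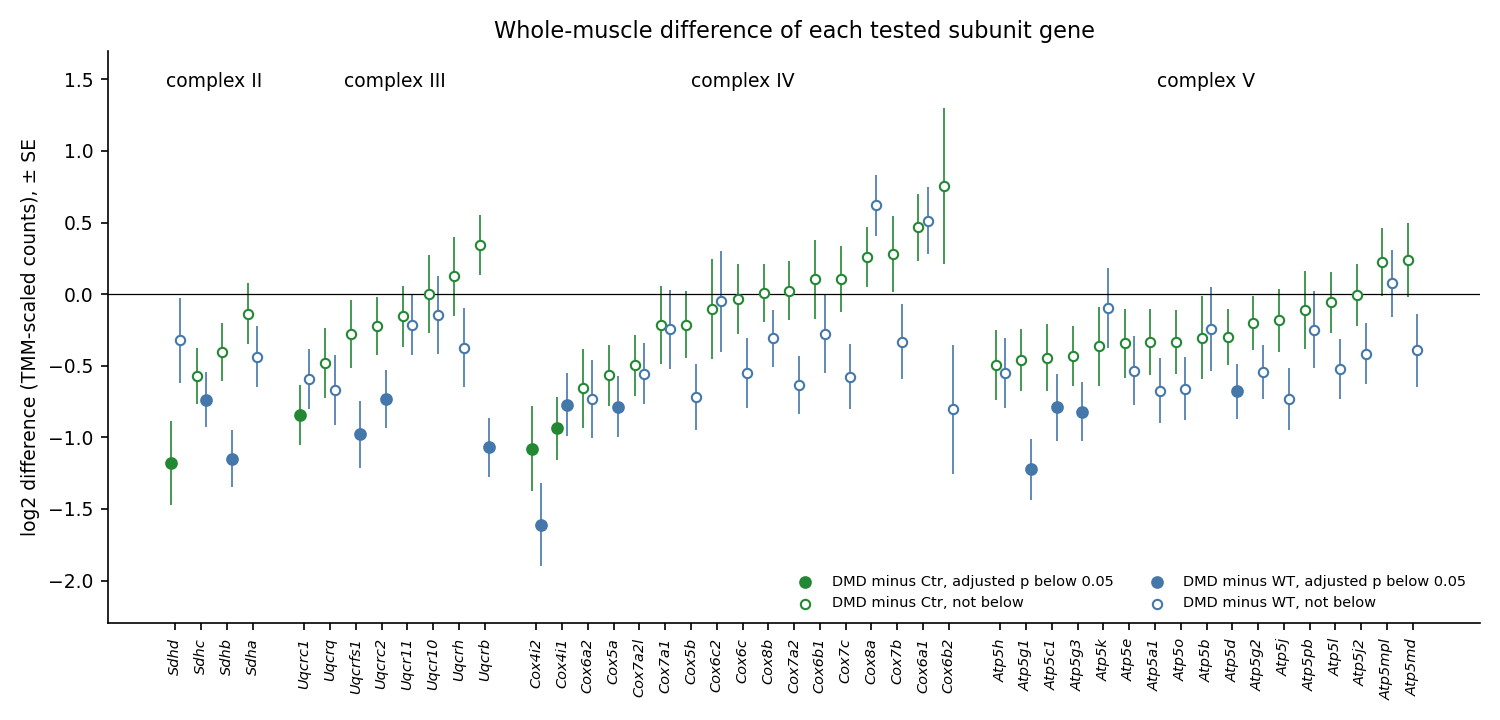
Log2 difference of each of the 46 tested genes between whole muscles, DMD minus Ctr (green) and DMD minus WT (blue), with its standard error, grouped by complex. Filled points are the 4 genes (against Ctr) and 12 genes (against WT) at an adjusted p below 0.05, all below 0. The values are TMM-scaled, and with library size alone the median subunit lies above 0 in both comparisons.

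In complex II, all 4 genes were tested. Sdhd (chr9:50596357-50603812, minus strand) had levels of 30.2 and 32.6 (WT), 75.3 and 38.1 (Ctr), and 27.6, 18.8 and 28.6 (DMD). Every DMD value was below every Ctr value, but the Ctr muscles differed widely from each other and the WT muscles lay close to DMD. The difference of DMD minus Ctr was -1.18 ± 0.29 (log2, SE, adjusted p = 0.0317 in edgeR), and against WT it was -0.32 ± 0.30 (adjusted p = 0.481). Sdhb, the iron-sulfur subunit, had levels of 456 and 466 (WT), 254 and 296 (Ctr), and 182, 230.2 and 212 (DMD). Here the 3 groups did not overlap, and Sdhb was lower in DMD than in WT by -1.15 ± 0.20 (adjusted p = 0.0101) but not past the threshold against Ctr (-0.40 ± 0.20, adjusted p = 0.208). Sdhc, the second membrane anchor, had 68.8 and 79.9 (WT), 72.5 and 60.2 (Ctr), and 39.6, 46.3 and 48.0 (DMD). With TMM all DMD values were the lowest, and Sdhc passed against WT (-0.74 ± 0.19, adjusted p = 0.0342 in edgeR). With library size alone Sdhc had 55.3 and 53.4 (WT), 75.4 and 57.8 (Ctr), and 55.8, 62.0 and 47.1 (DMD), so DMD overlapped both groups. Sdha, the catalytic flavoprotein, had 301 and 305 (WT), 251 and 242 (Ctr), and 184, 223 and 264 (DMD), and DMD overlapped Ctr.

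In complex III, Uqcrc1 (chr9:108936633-108949623, plus strand) had levels of 388 and 333 (WT), 412 and 445 (Ctr), and 204, 238 and 274 (DMD). With TMM all DMD muscles were below all others, by -0.84 ± 0.21 against Ctr (adjusted p = 0.0324 in edgeR) and -0.59 ± 0.21 against WT (adjusted p = 0.0816). With library size alone Uqcrc1 had 312 and 222 (WT), 428 and 427 (Ctr), and 288, 318 and 269 (DMD), so DMD overlapped WT but not Ctr. Its partner core subunit Uqcrc2 had 206 and 211 (WT), 152 and 141 (Ctr), and 104, 139.6 and 133 (DMD). Uqcrc2 passed against WT (-0.73 ± 0.20, adjusted p = 0.0385) and lay just below Ctr. The Rieske iron-sulfur protein Uqcrfs1 had 194 and 226 (WT), 141 and 118 (Ctr), and 94.3, 89.6 and 136 (DMD), and it passed against WT (-0.98 ± 0.23, adjusted p = 0.0249) while DMD and Ctr overlapped.

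Uqcrb is a small subunit of complex III. Its levels were 1168 and 1287 (WT), 473 and 448 (Ctr), and 580.3, 655 and 519 (DMD), so DMD lay between the 2 other groups. It was the only gene of the 46 past the adjusted threshold between the non-dystrophic groups in edgeR (11 were at an unadjusted p below 0.05, and DESeq2 called 3), higher in WT than in Ctr by 1.41 ± 0.23 (adjusted p = 0.0475 in edgeR), where 0.167% of all genes were higher and 0.364% differed. It was lower in DMD than in WT by -1.07 ± 0.21 (adjusted p = 0.0145). In 77.0% of the sections where Uqcrb was detected its count was not whole, which is how reads shared with other loci appear in these tables. The part of such reads and of the annotation in its level was not tested.

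In complex IV, Cox4i1 (chr8:120668222-120674207, plus strand) had levels of 374 and 369.9 (WT), 403 and 431 (Ctr), and 169, 247 and 238 (DMD). With TMM the DMD muscles were all below the 4 others, by -0.94 ± 0.22 against Ctr (adjusted p = 0.028 in edgeR) and -0.77 ± 0.22 against WT (adjusted p = 0.0435). With library size alone Cox4i1 had 301 and 247 (WT), 420 and 414 (Ctr), and 238, 330 and 234 (DMD), so DMD overlapped WT but not Ctr. Cox4i2 (chr2:152754173-152765037, plus strand), the form known for its expression in lung and under low oxygen, was near the low end of the range. Its levels were 6.03 and 5.73 (WT), 3.58 and 4.60 (Ctr), and 1.99, 2.54 and 1.31 (DMD), again without overlap. The difference was -1.08 ± 0.30 against Ctr (adjusted p = 0.0439) and -1.61 ± 0.29 against WT (adjusted p = 0.0112). Cox5a, which lies next to subunit 4 in the complex, had 298 and 318 (WT), 299.9 and 229 (Ctr), and 158, 174 and 203 (DMD), and passed against WT (-0.79 ± 0.21, adjusted p = 0.0368).

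**Figure D2:**
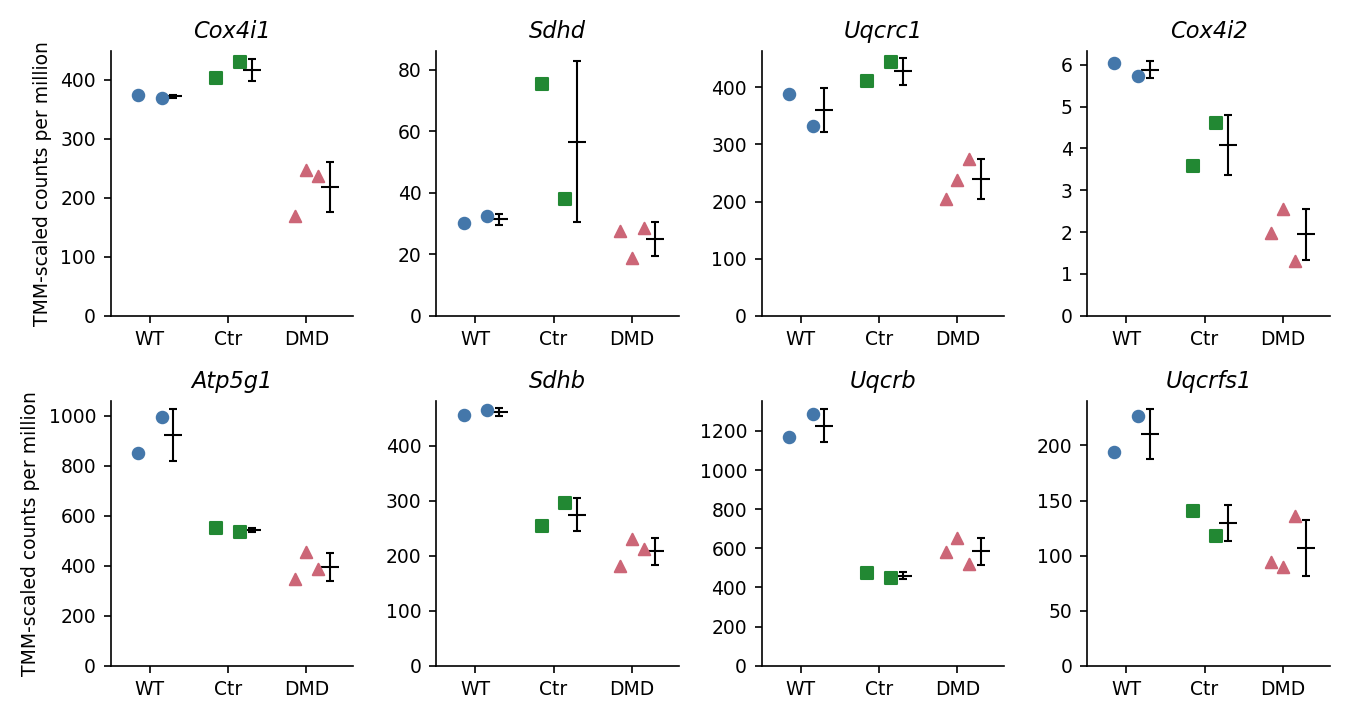
TMM-scaled CPM of 8 subunit genes in each muscle (points), with the mean and SD of each group (bars), n = 2 WT, 2 Ctr and 3 DMD. The 4 genes in the upper row are lower in all DMD than in all Ctr muscles, and Uqcrb in the lower row is the 1 gene that passed between WT and Ctr.

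In complex V, the catalytic subunits Atp5a1 and Atp5b did not pass in any comparison between groups. Atp5a1 had levels of 847 and 866 (WT), 771 and 586 (Ctr), and 498, 473 and 640.2 (DMD). Atp5b had 565 and 575 (WT), 602 and 587 (Ctr), and 305, 486 and 654 (DMD), so its DMD muscles spread around the others. The central-stalk subunits Atp5c1 and Atp5d were lower in DMD than in WT. Atp5c1 had 632 and 748 (WT), 525 and 559 (Ctr), and 304, 439 and 453 (DMD) (DMD minus WT -0.79 ± 0.23, adjusted p = 0.0479 in edgeR). Atp5d had 218 and 195 (WT), 173 and 145 (Ctr), and 134, 134 and 119.6 (DMD) (-0.68 ± 0.19, adjusted p = 0.0427).

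Subunit c, which forms the rotor ring, is made from 3 genes that give the same mature protein. Atp5g1 had levels of 849 and 996 (WT), 549.7 and 536 (Ctr), and 345, 455 and 385 (DMD). Atp5g3 had 953 and 1091 (WT), 811 and 749 (Ctr), and 524, 572 and 639 (DMD). For both, the groups did not overlap, and both were lower in DMD than in WT, by -1.22 ± 0.21 (adjusted p = 0.00986 in edgeR) and -0.82 ± 0.21 (adjusted p = 0.0291). Atp5g2 was less abundant in counts, with 83.5 and 98.1 (WT), 71.9 and 71.7 (Ctr), and 57.6, 60.8 and 68.6 (DMD), and did not pass. Counts were not whole in 89.3% of the sections with Atp5g1 and 93.1% of those with Atp5g2.

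Against WT, 12 of 46 genes were lower in DMD and none was higher, in all 4 complexes (2, 3, 3 and 4 genes). This was 26.1%, against 6.92% of all genes lower, 8.25% higher and 15.2% changed in either direction. The median was -0.55 with TMM and 0.20 with library size alone, under which no gene was lower and Cox6a1, Atp5mpl and Cox8a were higher. With library size alone 36 of 46 genes lay above 0, against 3 with TMM, and among the 12 called genes Sdhc, Uqcrc2 and Atp5d did. Relative to the median of all genes it was -0.62 with either scaling, and 43 of 46 genes were below that median with TMM and 44 with library size. The levels of 32 genes were lower in all DMD than in all WT muscles (69.6%, all genes 24.2%), and that of 1 gene was higher (all genes 26.7%). WT was itself above Ctr without overlap for 29 genes (63.0%, all genes 27.2%) and below it for 5 (all genes 27.8%) with TMM scaling. The median of WT minus Ctr was 0.33 with TMM and -0.12 with library size alone, and the genes below 0 numbered 8 and 30 of 46, while 38 were above the median of all genes under both. The comparisons with WT and with Ctr use the same DMD muscles.

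The number of calls changed when single muscles were left out. The share of all genes called in each of these fits is not given, so the counts cannot be set against it. A group of 2 muscles then has 1, which is assumed to vary like the other groups, so fewer calls follow in part from the design. Against Ctr, leaving out WT-1, WT-2, Ctr-1 or DMD-1 left 0 genes called, leaving out Ctr-2 or DMD-2 left 1, and leaving out DMD-3 left 6. Against WT, the count was 0 without WT-1 or WT-2, 8 without Ctr-1 or Ctr-2, 4 without DMD-1, 5 without DMD-2 and 21 without DMD-3 (19 lower and 2 higher), and the 1 call between WT and Ctr, Uqcrb, was kept without DMD-3 and lost without any other muscle. The median difference ranged from -0.278 to -0.0691 against Ctr, nearest to 0 without DMD-1, from -0.645 to -0.478 against WT, and from 0.255 to 0.359 for WT minus Ctr.

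Ratios of 2 isoforms within a muscle do not depend on the scaling between muscles. The log2 ratio of the muscle isoform Cox6a2 to its widely expressed partner Cox6a1 was 8.81 and 8.59 (WT), 8.46 and 8.66 (Ctr), and 6.95, 7.53 and 7.82 (DMD). All 3 DMD muscles were below all 4 others. The mean was 8.56 ± 0.135 in Ctr (SD, n = 2) and 7.43 ± 0.44 in DMD (SD, n = 3), a difference of -1.13, or 2.18-fold. Cox6a2 had levels of 9644 and 11602 (WT), 8889 and 11289.5 (Ctr), and 4881, 7707 and 6585 (DMD). Cox6a1 had 21.4 and 30.1 (WT), 25.2 and 28.0 (Ctr), and 39.5, 41.6 and 29.2 (DMD). Neither gene passed alone against Ctr (-0.66 ± 0.27, adjusted p = 0.133, and 0.47 ± 0.23, adjusted p = 0.203, in edgeR).

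The ratio of Cox8b to Cox8a, another pair of muscle and widely expressed forms, was also lower in DMD. It was 2.69 and 2.59 (WT), 2.02 and 1.91 (Ctr), and 1.78, 1.58 and 1.82 (DMD), a difference of DMD minus Ctr of -0.24. Here WT stood apart from both other groups. Cox8b had 462 and 444 (WT), 384 and 343 (Ctr), and 346, 407 and 344 (DMD). Cox8a had 71.4 and 73.6 (WT), 94.9 and 91.2 (Ctr), and 101, 136 and 97.3 (DMD), and reads shared with other loci reached 80.6% of its sections.

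The other pairs gave less. The ratio of Cox7a1 to Cox7a2 was 0.88 and 0.75 (WT), 1.24 and 1.60 (Ctr), and 0.81, 1.13 and 1.54 (DMD), so DMD overlapped both. Cox7a1 had 283 and 305 (WT), 248 and 327 (Ctr), and 166, 276 and 302 (DMD), and Cox7a2 had 154 and 181 (WT), 105 and 107 (Ctr), and 94.4, 126 and 104 (DMD). The ratio of Atp5g1 to Atp5g2 was 3.35 and 3.34 (WT), 2.94 and 2.90 (Ctr), and 2.58, 2.90 and 2.49 (DMD). Its highest DMD value, 2.902, lay barely under the lower Ctr value, 2.903. The ratio of Cox4i2 to Cox4i1 overlapped between DMD and Ctr.

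Cell-type markers moved beside these ratios. Summed macrophage markers took 0.156, 0.143 and 0.0247% of counts in DMD-1, DMD-2 and DMD-3, and 0.00713 to 0.0130% in the 4 other muscles. Summed oxidative fibre markers took 0.0838, 0.118 and 0.0682% in DMD, and 0.168 to 0.252% in the others. Most of this sum was Mb, with levels of 2779 and 2990 (WT), 1851 and 1503 (Ctr), and 497.4, 794.5 and 623.4 (DMD). The listed markers did not all move with it. Tnnt1 had 5.439 and 9.01 (WT), 5.86 and 15.5 (Ctr), and 9.194, 27.34 and 9.331 (DMD), so it was not lower in DMD. DMD-3 had the Cox6a2 to Cox6a1 ratio nearest to the non-dystrophic ones and the lowest share of macrophage markers among the DMD muscles. Its shares of fibroblast and matrix (0.0784%), regenerating fibre (0.0053%) and oxidative fibre markers were also the lowest of the DMD muscles. The part of these cells in the ratios was not tested.

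**Figure D3:**
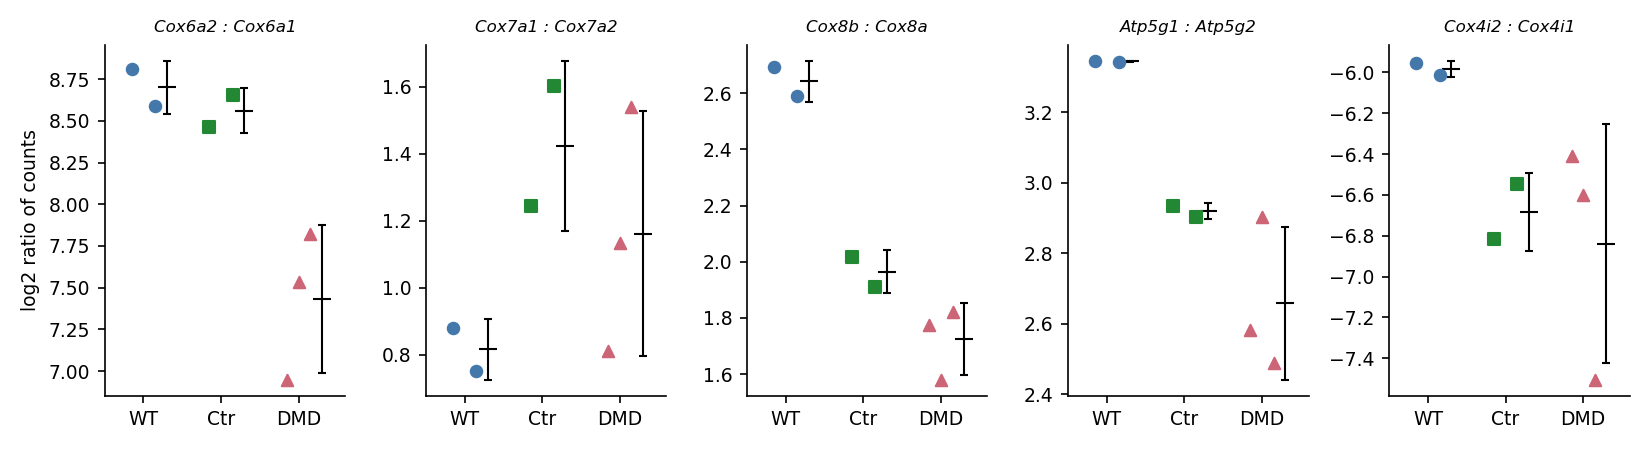
Log2 ratio of the counts of paired isoform genes in each muscle (points), with the mean and SD of each group (bars), n = 2 WT, 2 Ctr and 3 DMD (the vertical axes differ and do not start at 0). The ratio of Cox6a2 to Cox6a1 lies at 6.95 to 7.82 in DMD and at 8.46 to 8.81 in the other muscles.

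The order of the groups in the summed share of all 48 genes depended on the denominator. In percent of all counts, with no scaling, it was 2.31 and 2.16 (WT), 2.51 and 2.59 (Ctr), and 2.21, 3.09 and 2.06 (DMD), each with a 95% Wilson half-width of at most 0.0101 percentage points for counting error alone. DMD held both the highest and the lowest of these unscaled shares. With TMM-scaled library sizes it was 2.87 and 3.24 (WT), 2.41 and 2.69 (Ctr), and 1.57, 2.31 and 2.09 (DMD), and the 3 groups did not overlap.

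Mitochondrially encoded genes took 41.6 and 45.9% of counts in WT, 29.4 to 30.4% in Ctr and 25.7 to 34.3% in DMD. Another denominator left out 40 genes, these 37 and nuclear copies of mitochondrial genes, which hold further counts. In percent of the counts then left, the summed share was 4.76 and 5.03 (WT), 4.06 and 4.04 (Ctr), and 3.52, 4.54 and 3.61 (DMD). WT then lay above Ctr and not below it. The log2 ratio of the means of DMD over WT was 0.13 unscaled, -0.33 without these 40 genes and -0.62 with TMM. That of DMD over Ctr was -0.05, -0.06 and -0.36 in the same order.

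Without Cox6a2, the log2 ratio of DMD over Ctr was 0.11 unscaled and -0.19 with TMM. By complex it was -0.07 unscaled and -0.36 with TMM for complex II, 0.18 and -0.13 for complex III, -0.15 and -0.45 for complex IV, and 0.02 and -0.28 for complex V. Complex IV without Cox6a2 gave 0.24 and -0.06. Complexes III and V, and complex IV without Cox6a2, thus changed sign with the scaling.

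Genes of the same pathway from fixed lists were compared in the same fit. The lists were compared with TMM scaling only. Of 13 regulators, 7 were lower in DMD than in Ctr (53.8%, all genes 5.49%), with a median of -1.18 (log2) over the list. Among these 7 the largest differences were those of the nuclear receptor Esrrb (-4.15 ± 0.36, adjusted p = 0.0013 in edgeR) and the related receptor Esrrg (-2.16 ± 0.50, adjusted p = 0.0264). Esrrb had levels of 6.73 and 4.01 (WT), 11.35 and 7.32 (Ctr), and 0.446, 0.401 and 0.741 (DMD). Esrrg was at the low end of the range in all muscles, so its difference rests on few counts. Esrrb was also at the low end in the DMD muscles, so its difference rests on few DMD counts. The levels of Esrrg were 1.08 and 1.39 (WT), 1.11 and 1.53 (Ctr), and 0.240, 0.535 and 0.174 (DMD). No gene of the 13 in the citric acid cycle, the 7 carriers or the 6 mitochondrially encoded partners passed against Ctr, with 4, 4 and 1 at an unadjusted p below 0.05. Of the 33 assembly factors tested, Cox10 (-1.13 ± 0.20, adjusted p = 0.0134 in edgeR), Uqcc3 (-0.66 ± 0.18, adjusted p = 0.0462) and Tmem70 (-0.64 ± 0.18, adjusted p = 0.0447) were lower. Atpif1, the inhibitor of ATP synthase, was higher (1.32 ± 0.30, adjusted p = 0.0264 in edgeR). Together they were 12.1% of the list, while 12.7% of all genes changed in either direction.

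Against WT, the genes of the same lists past the threshold were all lower. They were 7 of 13 in the citric acid cycle (53.8%), 5 of 7 carriers (71.4%), 8 of 33 assembly factors (24.2%), 2 of 6 mitochondrially encoded partners (33.3%) and 4 of 13 regulators (30.8%). Of all genes, 6.92% were lower against WT. The median of the regulators against WT was -0.39. The 3 electron carriers and partners had 1 gene lower (Cyc1) against WT and none against Ctr, where none was at an unadjusted p below 0.05.

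The sections of each muscle were then followed in the order of their barcode number. The labels do not say whether this number is the physical order of the sections, or which end of the muscle comes first. The order is taken from the column names, and the numbers of the kept sections jump, for example from 12 to 49 in WT-1. The kept sections of each muscle were split in this order into 3 runs of equal number, and the last run was compared with the first within muscles, averaged over the 3 groups, for the 45 subunit genes with enough counts. Of these, 19 were lower in the last run and none was higher. This was 42.2%, while 2.09% of all 12085 genes were lower, 1.02% were higher and 3.11% changed in either direction. All 45 differences were below 0 with TMM scaling (median -0.25, all genes 0.01), and 41 of 45 with library size alone (median -0.10, all genes 0.17). Relative to the median of all genes they were at -0.26 with either, and all 45 were below it.

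The smallest p was that of Cox6b1, a complex IV subunit that faces the intermembrane space, with -0.37 ± 0.07 (adjusted p = 0.00128 in edgeR). Its levels in the first and in the last run were 1494 and 1180.0 (WT-1), 1346 and 1075 (WT-2), 924 and 735 (Ctr-1), 1293 and 935 (Ctr-2), 929 and 584 (DMD-1), 1442 and 1180.5 (DMD-2), 1132 and 971 (DMD-3). All 7 muscles were lower in the last run. Uqcrq of complex III (-0.33 ± 0.07, adjusted p = 0.00414) and the muscle isoform Cox7a1 (-0.34 ± 0.07, adjusted p = 0.0051) had the next smallest p. Cox6b1 and Uqcrq were singled out after their values had been seen. By complex, 1 of 4 genes of complex II, 5 of 8 of complex III, 7 of 16 of complex IV and 6 of 17 of complex V were lower.

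The same direction recurred from muscle to muscle. Of the 45 genes, 34 had a lower TMM-scaled level in the last run in all 7 muscles (75.6%), against 3.42% of 10947 genes with counts in every run. With library size alone it was 14 of 45 (31.1%), against 1.08%. The most frequent exceptions were isoforms of lower level than their partners: Cox6a1 and Atp5g2 were lower in 3 muscles and Cox4i2 in 4. In DMD-1 the median over the genes was -0.62, the furthest from 0 of any muscle, and in DMD-3 it was -0.115, the nearest, with -0.123 in WT-1. In DMD-1 Cox6a1 had a higher level in the last run while its partner had a lower one: 33.1 and 50.9 in the first and the last run, against 6237 and 3542 for Cox6a2. Summed macrophage markers in the same runs of DMD-1 took 0.0977 and 0.258% of counts, and their part was not tested.

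**Figure D4:**
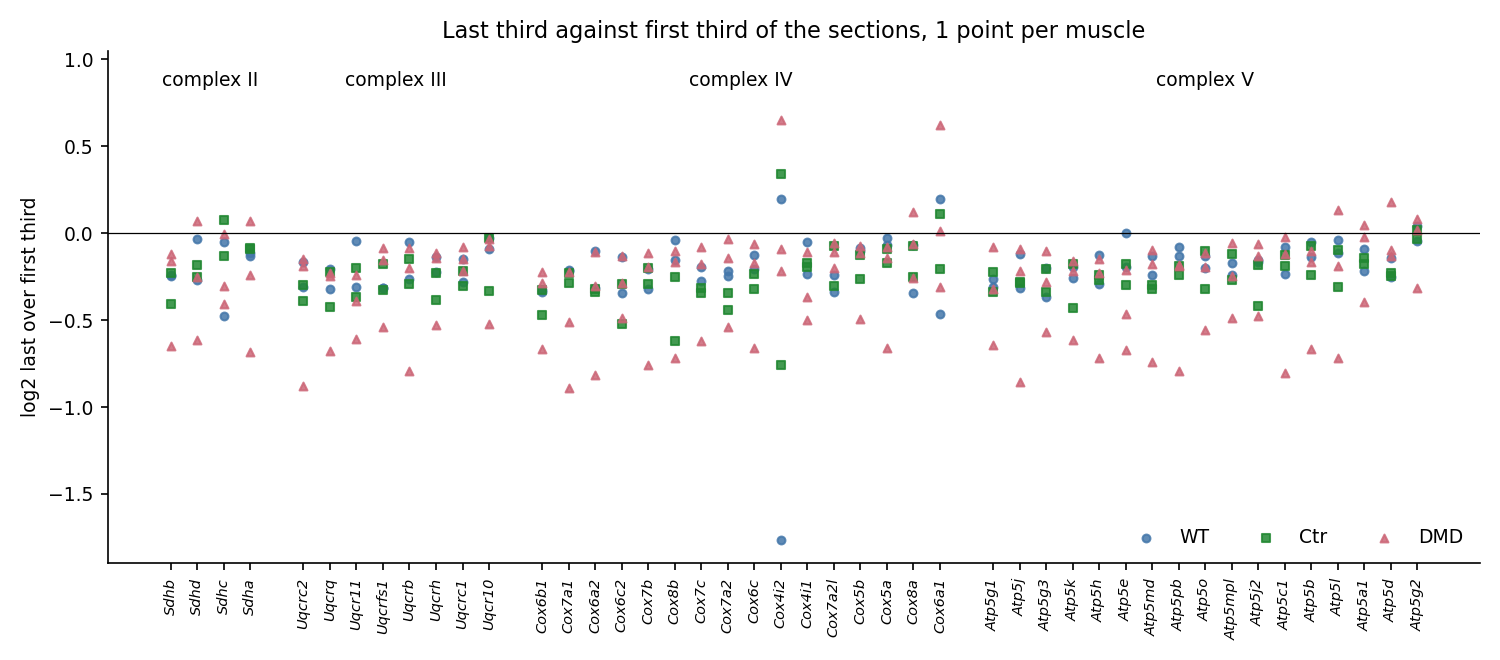
Log2 ratio of the TMM-scaled level in the last run of sections to that in the first, 1 point per muscle for each of 45 genes, grouped by complex. Most points lie below 0, 34 genes are below 0 in all 7 muscles (14 with library size alone), and Cox6a1, Atp5g2 and Cox4i2 scatter around 0.

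Other genes changed along the same order. In the same contrast, all 6 mitochondrially encoded partners were lower (median -0.33), as were 3 of 5 oxidative fibre markers (Myh2, Myl3 and Mb, median of the list -0.40) and all 5 erythroid markers (median -1.74). Of the 8 muscle fibre markers, 2 were higher and 1 was lower (median 0.06). The fast myosin Myh4 was among the higher ones (0.34 ± 0.07, adjusted p = 0.0102 in edgeR). In this contrast, averaged over the groups, none of the 10 macrophage markers passed, and none was at an unadjusted p below 0.05. The unscaled erythroid share had log2 ratios of last to first run of -1.88 and -1.28 (WT), -1.24 and -3.47 (Ctr), and -2.22, -0.45 and 0.07 (DMD). For the summed subunit share, also unscaled, they were -0.03 and -0.07 (WT), -0.12 and -0.19 (Ctr), and -0.32, -0.18 and -0.03 (DMD). The part of fibre types and blood in the result was not tested.

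The group-wise effects had the same sign. The median of last minus first was -0.20 in WT, -0.24 in Ctr and -0.30 in DMD, with 0, 0 and 5 genes past the threshold (6, 17 and 36 at an unadjusted p below 0.05) where, in either direction, 0.645%, 0.389% and 1.4% of all genes passed. Of all genes, 0.679% were lower in DMD. The 5 in DMD were Cox7a1, Atp5e, Uqcr11, Uqcrq and Cox6b1. In the same DMD contrast 1 of 10 macrophage markers was higher (8 at an unadjusted p below 0.05, median 0.52), 2 of 5 regenerating fibre markers were higher and 3 of 5 oxidative fibre markers were lower. None of the 7 fibroblast and matrix markers passed, with 4 at an unadjusted p below 0.05. The part of these cells in the DMD calls was not tested. The test of the difference itself, DMD minus the mean of WT and Ctr, gave 0 of 45 genes in edgeR and in DESeq2 (2 at an unadjusted p below 0.05, all genes 0.182%), with a median of -0.0875 that turned to 0.0881 without DMD-1. The middle run against both ends gave 0 of 45 genes, 1 at an unadjusted p below 0.05, where 0.174% of all genes passed, and 0 with DESeq2. Its difference between DMD and the mean of WT and Ctr also gave 0 with edgeR and with DESeq2 (0 at an unadjusted p below 0.05, all genes 0.0165%).

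The share of all genes called is not given for the following fits, so their counts cannot be set against it. The count of 19 changed with the muscles included, and without a WT or Ctr muscle 1 group has a single muscle. It was 18 without DMD-1, 29 without DMD-2 and 28 without DMD-3, but 1 without WT-1, 1 without WT-2, 2 without Ctr-1 and 0 without Ctr-2, with medians between -0.20 and -0.29 throughout. It was 4 with library size alone (Cox6b1, Cox6a2, Cox7a1 and Uqcrq), 12 with 4 runs in place of 3 and 28 with DESeq2.

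The summed share of the 48 genes in single sections showed the same course most plainly in 1 DMD muscle. With the sections split into 10 runs, it was 2.51% in the first run of DMD-1 and 1.65% in the last. In Ctr-2 it went from 2.785 to 2.238% and in DMD-2 from 3.21 to 2.54%, while DMD-3 ended higher than it began, at 1.94 and 2.16%. WT-1 and WT-2 differed less between their ends, at 2.37 and 2.29% and at 2.333 and 2.255%. Sections next to each other in this order resembled each other in DMD-1 (Pearson r = 0.91 over 65 sections), DMD-2 (0.63 over 67) and Ctr-2 (0.48 over 55). They hardly did in WT-1 (-0.05 over 50) or Ctr-1 (-0.02 over 61). These values describe sections of 1 muscle, which share their library and neighbours.

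**Figure D5:**
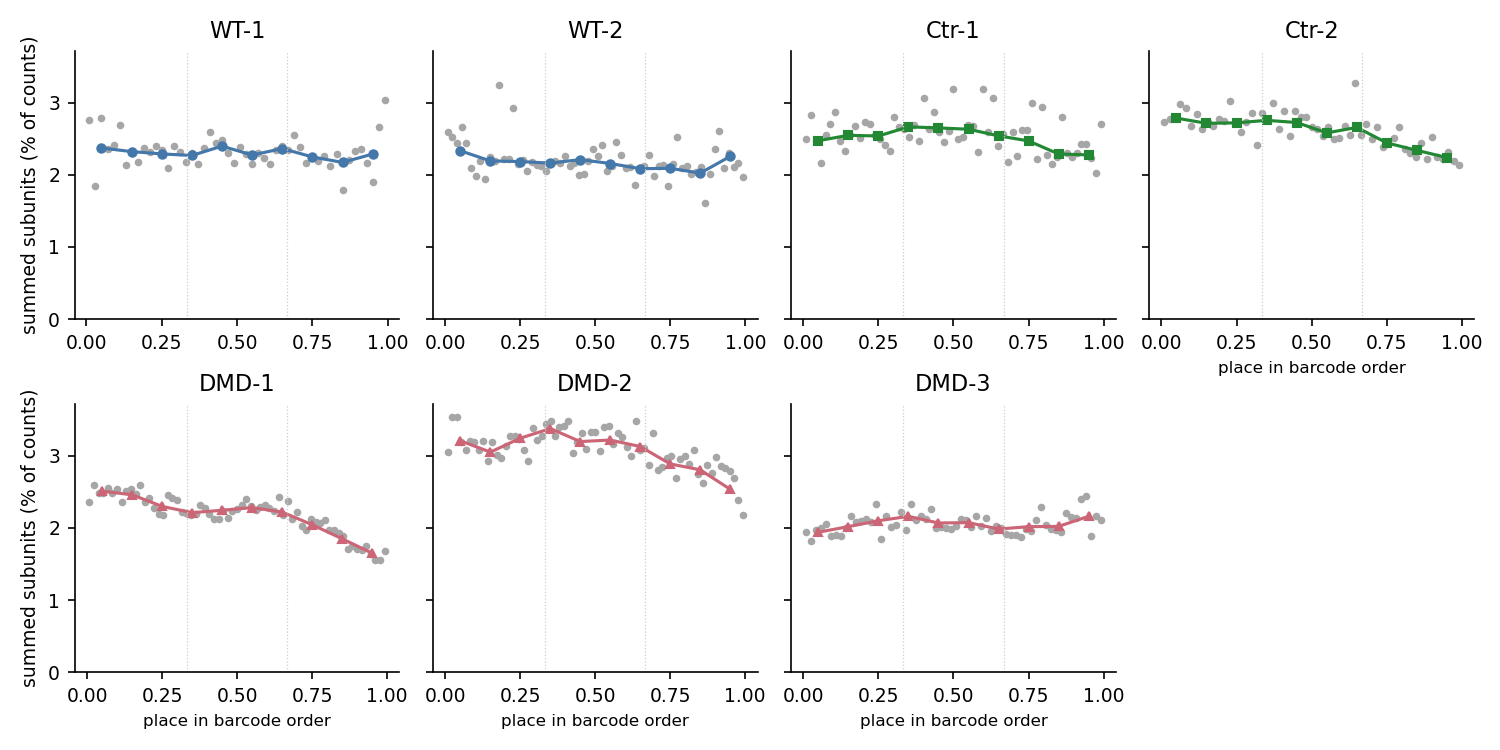
Share of all counts on the 48 genes (percent) in each kept section (grey) and in 10 runs of sections (coloured) along the barcode order from first (0) to last (1), 1 panel per muscle; dotted lines mark the 3 runs used in the tests. The share goes from 2.51 to 1.65% in DMD-1 between the first and the last of 10 runs and stays between 1.94 and 2.16% at the ends of DMD-3.

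The complexes followed each other unequally across sections. Spearman's rho between the shares of complex III and complex V within a muscle (50 to 67 sections) was 0.51 to 0.87, and that between complex IV without Cox6a2 and complex V was 0.68 to 0.89. Between complex II and complex V it was -0.04 to 0.79, with the lowest value in DMD-2 and the highest in DMD-1. Shares of sections from 1 muscle have a common denominator, and complex II took only 0.0543 to 0.0693% of counts, the fewest counts of the 4 complexes.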

How the data were processed

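The deposited tables hold expected counts, estimated reads per gene and section. Per the file headers they were made with featureCounts 2.0.1, stranded, with each shared read divided into fractions and exons added up within a gene. Per the submitters' processing notes, the aligner was STAR 2.7.7a and the genome GRCm38.

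Sections with at least 1000 counts and 20% of the median of their muscle were added up per muscle, and the sums rounded. Nothing in the labels says that the muscles came from separate animals, so p-values measure only the spread between these samples. Groups were compared with edgeR 4.0.16 in R 4.3.3 (quasi-likelihood test, TMM, filter on low counts, 1 fit over 7 muscles), and runs of sections with a term for each muscle. Each standard error is the log2 difference divided by the square root of F. P-values were adjusted over all genes and called below 0.05. The fits were tested on simulated data. DESeq2 1.42.0 was an alternative.

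Genes named were those called between groups (beyond 12, the smallest p against Ctr), the isoform pairs and the catalytic or core subunits, and up to 2 called genes per pathway list and direction with the largest fold. Others, such as Tmem70, Cyc1, Myh4 and the genes called along the sections, were chosen after their values were seen. The members and lists were chosen with earlier results of these data known. Intervals and floors cover counting error only.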

Additional observations from a re-analysis of the deposited data

How the results depend on the processing

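Whether replicate numbers pair the muscles could not be settled, and the main fit had no replicate term. Same-numbered muscles' deviations from their group means correlated at 0.00604 to 0.189. In a group of 2 muscles these deviations mirror each other, so low values cannot exclude pairing. The counts of called subunit genes that follow stand without the share of all genes called under the same setting. They therefore do not show whether the subunits gained or lost more than other genes. With the replicate block, 8 genes were called for DMD minus Ctr (7 lower), 27 for DMD minus WT (25 lower) and 2 for WT minus Ctr. With library size only, 0, 3 and 0 were called in these comparisons and 4 for last minus first, and DMD minus WT turned to 0.0167 for Sdhc, 0.0115 for Uqcrc2 and 0.0831 for Atp5d. With sections thinned to 20000 counts, 1 gene was called for DMD minus Ctr and 4 for DMD minus WT. A fit of only the 2 groups gave 0 for DMD minus Ctr. DESeq2 gave 20 for DMD minus WT, 3 for WT minus Ctr and 28 for last minus first, the last within 1.5 times, and no filter on low counts gave 2 for WT minus Ctr. Splitting the sections into 4 runs gave 12 for last minus first. The cause was not tested. Leaving out 1 muscle at a time gave 0 to 6 genes for DMD minus Ctr, 0 to 21 for DMD minus WT, 0 to 1 for WT minus Ctr and 0 to 29 for last minus first. It gave -0.257 to 0.0575 for the summed share and -1.32 to -0.883 for Cox6a2 to Cox6a1. Removal of mitochondrial genes before the position fits, the difference between groups in last minus first, the share without Cox6a2 and the 10 runs were chosen after seeing the data. Counting error (at most 0.0101 percentage points) was small beside the spread of the summed share between DMD muscles.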
